A study of Mus musculus with 4 samples.

Results

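Peg3, Grb10 and Gnas are 3 imprinted genes of growth control, that is, genes of which 1 parental copy can be silenced by a mark set in the germ line. They were chosen by name from the deposited table of 1000 genes, with their read counts in all 4 libraries and earlier results of these data in view, so their values are given as a description and not as a test. The tissue was tibialis anterior, a leg muscle, of mice with the Dmd Dup2 genotype, in which exon 2 of dystrophin is duplicated, a model of Duchenne muscular dystrophy. Every group carried that duplication. One group had received scAAV9.U7-ACCA, an adeno-associated virus vector of serotype 9 whose U7 small nuclear RNA makes splicing skip an exon, and the other was the untreated control. From each muscle there was 1 mRNA library and 1 library of ribosome footprints, the mRNA fragments that ribosomes protect from nuclease, so each of the 4 groups had 1 library and nothing below could be checked in replicates. How many animals a library holds, their age and sex, and a wild type group are not stated in the labels.

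Peg3 (NM_008817) encodes a large zinc finger transcription factor, also known as Pw1, which is expressed from the paternal allele and marks satellite cells and interstitial progenitors in mouse muscle. Grb10 (NM_010345) encodes an adaptor that binds the insulin and IGF1 receptors and restrains their signalling. It is expressed from the maternal allele in most mouse tissues and from the paternal allele in neurons. Gnas (NM_201616) encodes the stimulatory G protein alpha subunit, which links hormone receptors to adenylyl cyclase and so to cAMP and protein kinase A. The Gnas locus has several promoters with different imprints, and the alpha subunit itself is made from both alleles in most tissues. Gene-level read counts cannot show which allele or which start site the reads came from.

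The 250 bases before annotated start sites are shown as a description, and the 3 genes differ in how many such starts they have. Whether the counts of a gene sum over its starts was not given in the sources used here. RefSeq promoter windows on GRCm38.p6 were matched by symbol for all 3 genes, with 1 window for Peg3, 2 for Grb10 and 4 for Gnas, while the reads were placed on mm9. Each sequence is given 5′ to 3′ on the gene's own strand. Capitals mark matches to TGACGTC, the core of the cAMP response element, or to CCATNTT, the core of the YY1 motif.
Peg3 start (chr7:6730420-6730669, minus strand): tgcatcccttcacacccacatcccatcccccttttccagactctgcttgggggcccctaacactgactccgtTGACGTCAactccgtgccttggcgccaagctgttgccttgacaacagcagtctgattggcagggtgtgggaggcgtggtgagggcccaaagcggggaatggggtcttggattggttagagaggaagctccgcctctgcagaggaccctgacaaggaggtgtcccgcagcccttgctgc
Grb10 upstream start (chr11:12037421-12037670, minus strand): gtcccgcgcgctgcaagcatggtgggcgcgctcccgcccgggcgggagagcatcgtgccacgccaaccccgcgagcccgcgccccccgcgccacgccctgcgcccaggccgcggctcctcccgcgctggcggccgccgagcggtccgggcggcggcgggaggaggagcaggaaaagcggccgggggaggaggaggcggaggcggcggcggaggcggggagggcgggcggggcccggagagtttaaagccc
Grb10 downstream start (chr11:12027972-12028221, minus strand): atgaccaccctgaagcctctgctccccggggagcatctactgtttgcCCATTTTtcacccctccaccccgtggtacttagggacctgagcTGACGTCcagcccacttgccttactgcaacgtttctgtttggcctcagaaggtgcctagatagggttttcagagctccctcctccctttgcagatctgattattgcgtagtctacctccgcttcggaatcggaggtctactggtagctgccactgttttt
Gnas most upstream start (chr2:174284070-174284319, plus strand): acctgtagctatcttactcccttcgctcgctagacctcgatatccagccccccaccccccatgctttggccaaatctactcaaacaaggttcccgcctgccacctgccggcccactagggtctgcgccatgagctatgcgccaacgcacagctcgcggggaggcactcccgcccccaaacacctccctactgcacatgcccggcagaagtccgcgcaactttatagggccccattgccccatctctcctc
Gnas most downstream start (chr2:174329756-174330005, plus strand): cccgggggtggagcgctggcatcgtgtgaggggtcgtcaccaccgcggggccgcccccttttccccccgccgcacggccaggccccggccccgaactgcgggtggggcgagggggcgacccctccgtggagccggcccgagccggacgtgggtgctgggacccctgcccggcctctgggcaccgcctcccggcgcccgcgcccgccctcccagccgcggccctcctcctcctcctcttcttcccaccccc
The Peg3 window held TGACGTC on both strands at 1 palindromic place, where the 2 matches overlap. The Grb10 downstream window held TGACGTC on the gene's strand, with its first base 160 bases before the start, and CCATTTT, a match to CCATNTT, 203 bases before it. Neither motif was found in the Grb10 upstream window or in any of the 4 Gnas windows. Searched on both strands, TGACGTC was present in 2.78% and CCATNTT in 12.4% of all 32851 windows of this length, so these matches only describe the letters. CG dinucleotides, the bases at which imprints are written, numbered 8 in the Peg3 window, 40 and 8 in the Grb10 upstream and downstream windows, and 14 and 29 in the most upstream and most downstream Gnas windows. The median window held 6.

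The listed genes held 4248818 and 125236 reads in treated and untreated mRNA, and 1664122 and 3349015 reads in treated and untreated footprints. The untreated mRNA library was thus the shallowest, and it set the width of most mRNA intervals. The genes are listed by their reads in untreated mRNA, with 14 as the lowest count. A gene low in that library would therefore not be among those analysed here. Among genes with few reads there, this listing favours lower mRNA ratios, treated over untreated. It likewise favours more footprints per mRNA in treated than in untreated muscle. No interval below covers this. All 7 markers of mature fast fibres were listed and their summed level was 256729 and 198725 TMM-scaled CPM in treated and untreated mRNA. Their summed footprints were 269176 and 264501 TMM-scaled CPM in treated and untreated muscle, a ratio of 1.02, against 1.29 in mRNA. Single markers of this list differed in both directions in footprints, as given further below. CPM are reads per 1000000 of the library size, which TMM adjusts through the bulk of the listed genes. Reads were not divided by transcript length, so levels are compared between libraries for the same gene and not between genes. Whether the ratios between libraries vary with transcript length was not tested.

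The 3 genes had lower footprint levels in treated muscle, but their mRNA differed in 3 ways. Peg3 mRNA was moderately lower and its footprints far lower. Grb10 mRNA and footprints were both lower by a similar factor. Gnas mRNA was higher while its footprints were lower.

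Peg3 had 828 reads in treated mRNA and 67 in the shallower untreated mRNA library, or 245 and 428 TMM-scaled CPM. Its footprints numbered 64 in treated muscle and 1181 in untreated muscle, or 38.9 and 347 scaled CPM. In scaled CPM treated muscle was the lower of the pair in both readouts, and the gap was far wider in footprints. The treated mRNA level was 1.74-fold lower (95% exact binomial interval 1.34 to 2.24) and the footprint level 8.91-fold lower (6.93 to 11.7). These intervals cover counting error only, as do all below, and reads without molecular identifiers are not independent molecules. Ordered by reads among the 1000 listed genes, Peg3 stood at position 934 in treated and 266 in untreated footprints, and at 440 and 175 in treated and untreated mRNA. Of 999 genes compared in footprints, 4 had a lower ratio than Peg3.

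Grb10 had the fewest mRNA reads of the 3, with 123 in treated and 25 in untreated mRNA, or 36.4 and 160 scaled CPM. Its footprints numbered 68 in treated and 869 in untreated muscle, or 41.3 and 255 scaled CPM. Both readouts were lower in treated muscle, by factors whose intervals overlap. The mRNA level was 4.38-fold lower (2.73 to 6.78) and the footprint level 6.17-fold lower (4.82 to 8.02). Its position by reads was 946 in treated and 486 in untreated mRNA, and 921 and 367 in treated and untreated footprints. The 25 untreated reads make the mRNA interval of Grb10 the widest of the 3. They lie near the lowest listed count of 14, and listing by that library favours a lower mRNA ratio.

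Gnas, the most deeply read of the 3, had 4801 reads in treated and 83 in untreated mRNA, or 1421 and 530 scaled CPM. Its footprints numbered 772 in treated and 5588 in untreated muscle, or 469 and 1641 scaled CPM. The mRNA was thus higher and the footprints lower in treated muscle. The mRNA level was 2.68-fold higher (2.16 to 3.38), and the footprint level was 3.50-fold lower (3.24 to 3.77). Gnas stood at position 73 in treated mRNA, against 140 in untreated mRNA, and at position 204 in treated footprints, against 65 in untreated footprints.

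**Figure D1:**
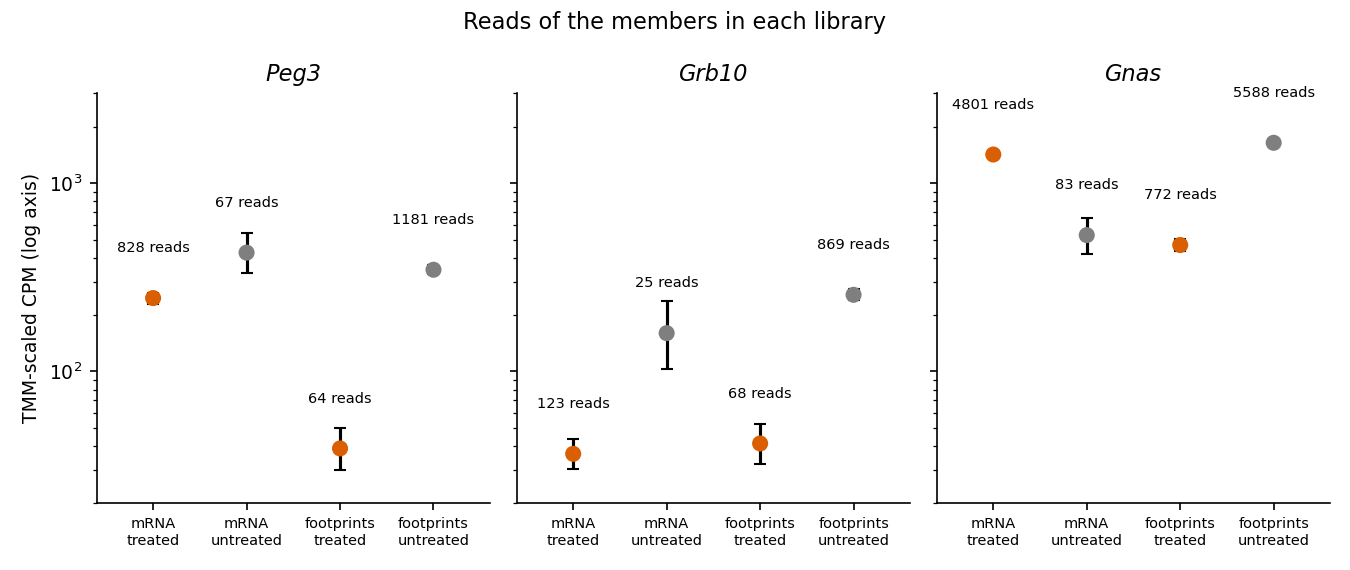
TMM-scaled CPM (log axis) of Peg3, Grb10 and Gnas in the 4 libraries, treated in orange and untreated in grey, with exact binomial 95% intervals and the read count above each point. Treated footprints lie below untreated footprints for each gene, while treated mRNA lies below untreated mRNA for Peg3 and Grb10 and above it for Gnas.

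A gene was called higher or lower where its ratio was at least 1.5-fold, its interval excluded 1 and the pair of libraries held at least 50 reads. In footprints all 3 members were called lower, where 26.2% of the 999 genes compared were called lower and 19.9% higher. In mRNA Peg3 and Grb10 were called lower, as were 24.8% of 996 genes, and Gnas was called higher, as were 31.8%. Since the members were picked with these values known, nothing is read from the counts. Being lower in both readouts was shared by 101 of 995 genes (10.2%), Peg3 and Grb10 among them. The Gnas combination of higher mRNA with lower footprints was found in 58 of 995 genes (5.83%).

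The comparisons between the members do not depend on library scaling, since both genes of a pair are read in the same libraries. The treated over untreated mRNA ratio of Gnas was 4.68 times that of Peg3 (3.37 to 6.51) and 11.9 times that of Grb10 (7.36 to 19.2). That of Grb10 was 0.395 times that of Peg3 (0.241 to 0.646). The mRNA ratios therefore stood in the order Grb10, Peg3 and Gnas from low to high, each pair apart by more than the counting error. In footprints the order was Peg3, Grb10 and Gnas, and the spread was smaller. The Grb10 footprint ratio was 1.44 times that of Peg3, with an interval of 1.02 to 2.05 that nearly reached 1. The Gnas footprint ratio was 2.53 times that of Peg3 (1.95 to 3.29) and 1.75 times that of Grb10 (1.36 to 2.27).

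**Figure D2:**
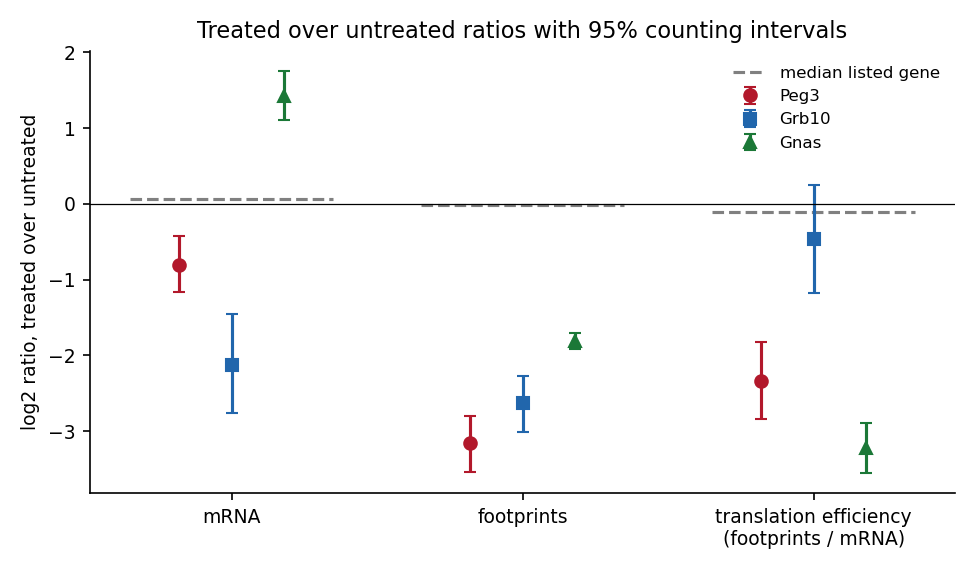
Log2 ratios, treated over untreated, of Peg3, Grb10 and Gnas in mRNA, footprints and translation efficiency, with 95% counting intervals; dashed lines give the median listed gene. Footprint ratios lie between -3.16 and -1.81, and mRNA ratios between -2.13 and 1.42.

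Dividing a gene's footprint ratio by its mRNA ratio gives its translation efficiency ratio, the difference in ribosomes per mRNA. Gnas had the lowest value of the 3, with a translation efficiency 9.32-fold lower in treated muscle (95% interval 7.41 to 11.7). Of 995 genes compared, 8 lay below it. Peg3 translation efficiency was 5.04-fold lower (3.54 to 7.17), with 30 genes below it. Grb10 translation efficiency was 1.38-fold lower with an interval of 0.842 to 2.25 that held 1, and 384 genes lay below it. Peg3 and Gnas met the criteria for lower translation efficiency and Grb10 did not, where 31.9% of the 995 genes were called lower and 26.0% higher. On the log2 scale the Peg3 footprint difference of -3.16 was made up of -0.80 in mRNA and -2.35 in footprints per mRNA. For Grb10 the -2.63 was made up of -2.13 and -0.49, and for Gnas the -1.81 was made up of 1.42 and -3.23.

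With TMM the larger part of the footprint difference was in mRNA for Grb10 and in footprints per mRNA for Peg3. The split moved with the scaling. With the authors' library constants the Peg3 difference of -3.43 was made up of -1.68 in mRNA and -1.74 in footprints per mRNA, about equal parts. The Grb10 difference of -2.90 was made up of -3.01 and 0.12. Under these constants the median gene stood at -0.82 in mRNA and 0.50 in translation efficiency, against 0.06 and -0.11 with TMM. Set against the median gene, the members did not move. The members also differed from each other in translation efficiency by more than counting error. The translation efficiency ratio of Grb10 was 3.66 times that of Peg3 (1.996 to 6.70), and that of Gnas was 0.148 times that of Grb10 (0.0859 to 0.254). Between Gnas and Peg3 the gap was smaller, at 0.540 times (0.355 to 0.823).

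**Figure D3:**
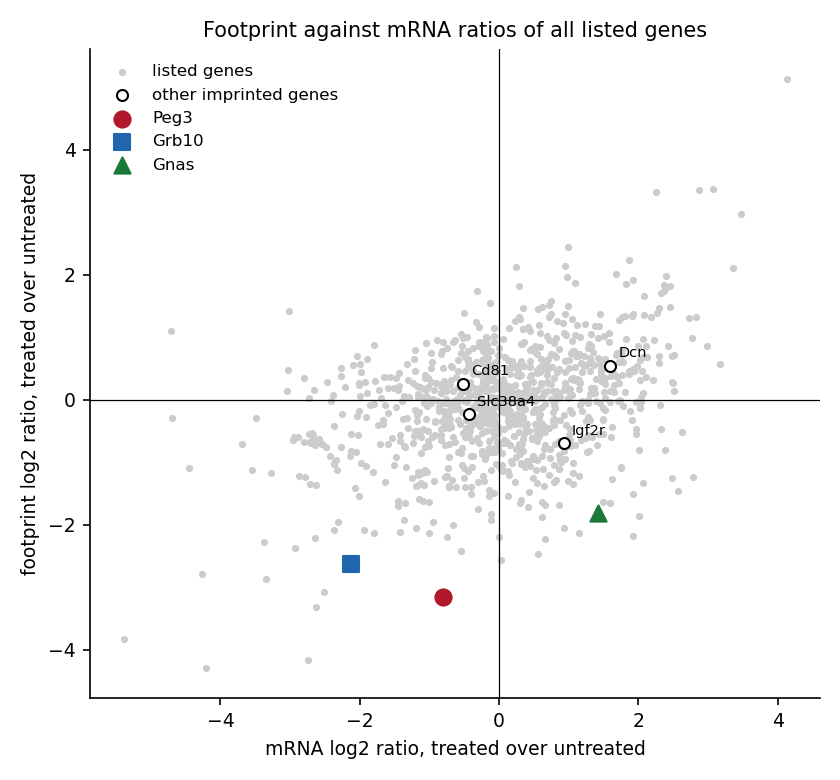
Footprint log2 ratio against mRNA log2 ratio, treated over untreated, of all 1000 listed genes (grey), with Peg3, Grb10 and Gnas as filled symbols and 4 other imprinted genes as open circles. Peg3 and Grb10 lie in the lower left, and Gnas in the lower right at an mRNA ratio of 1.42 and a footprint ratio of -1.81.

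Ribosome loading within each muscle was taken as TMM-scaled footprint reads over mRNA reads. This ratio also depends on how much of a transcript is coding, so each gene is best set against itself. Gnas had 0.330 footprint reads per mRNA read in treated muscle (0.306 to 0.356) and 3.10 in untreated muscle (2.49 to 3.90). In treated muscle 12.6% of genes lay below Gnas, and in untreated muscle 94.8% did. Gnas therefore stood among the more loaded genes of untreated muscle and among the less loaded ones of treated muscle. Peg3 had 0.159 in treated (0.121 to 0.205) and 0.811 in untreated muscle (0.634 to 1.05). The share of genes below Peg3 was 4.41% in treated and 35.2% in untreated muscle. Grb10 had 1.14 in treated (0.831 to 1.54) and 1.60 in untreated muscle (1.08 to 2.49), with 56.6% and 79.6% of genes below it. The 2 Grb10 intervals overlap, while those of Gnas and of Peg3 lie apart.

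**Figure D4:**
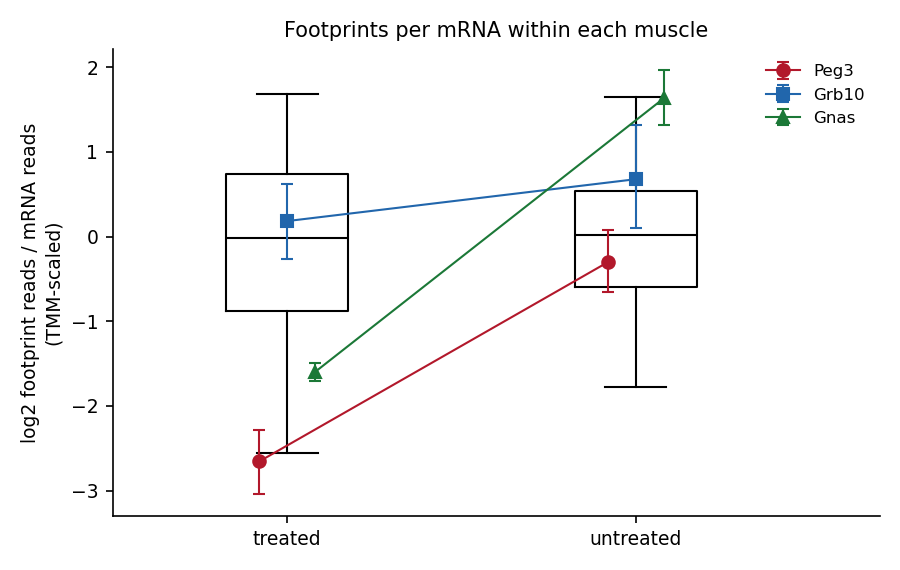
Log2 of TMM-scaled footprint reads per mRNA read within treated and untreated muscle for Peg3, Grb10 and Gnas with 95% counting intervals, over boxes of all 1000 listed genes (quartiles, whiskers at percentiles 5 and 95). Gnas is at -1.60 in treated and 1.63 in untreated muscle, Peg3 at -2.66 and -0.30, and Grb10 at 0.18 and 0.68.

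The mRNA ratios moved with the library scaling and the footprint ratios moved less. Over 6 scalings the log2 mRNA ratio ranged from -1.68 to -0.80 for Peg3, from -3.01 to -2.13 for Grb10 and from 0.54 to 1.42 for Gnas. The lowest of each came with the authors' library constants, under which Gnas mRNA was 1.46-fold higher and just short of the fold threshold. Footprint log2 ratios ranged from -3.43 to -3.08 for Peg3, from -2.90 to -2.55 for Grb10 and from -2.08 to -1.73 for Gnas. Translation efficiency stayed called lower for Peg3 and for Gnas in all 6, at log2 values up to -1.72 and -2.61. Grb10 was called neither way in any of the 6, and its log2 translation efficiency turned from -0.46 to 0.15.

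**Figure D5:**
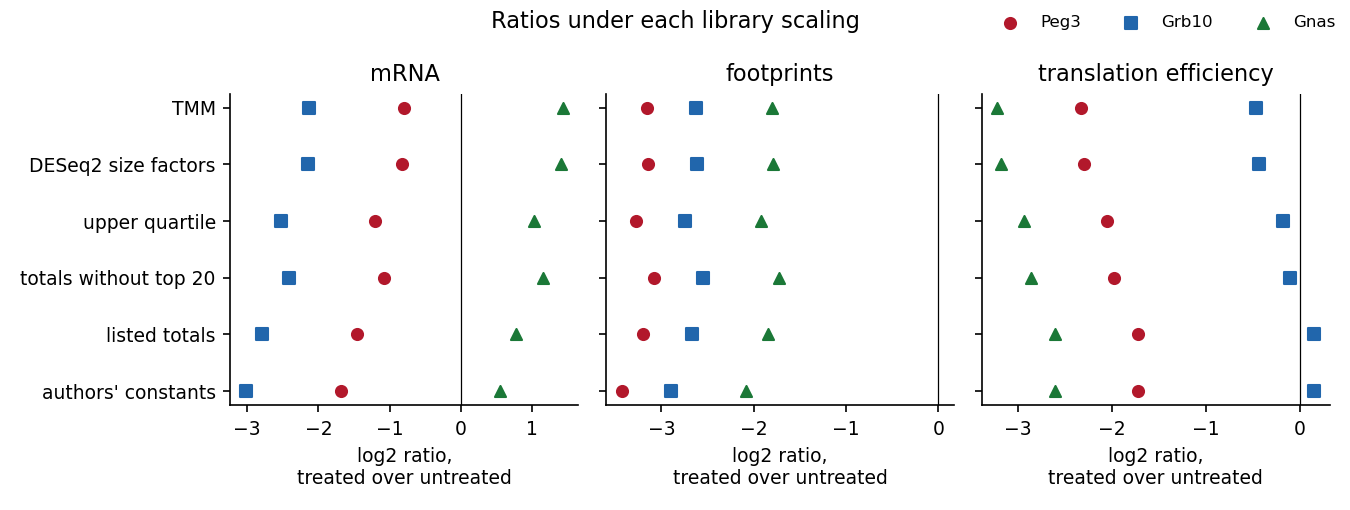
Log2 ratios, treated over untreated, in mRNA, footprints and translation efficiency under 6 library scalings (rows). No symbol of Peg3 or Gnas crosses 0 in any panel, and Grb10 crosses it in translation efficiency, at 0.15 with the listed totals and with the authors' library constants.

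Markers of other cell types also differed between the treated and untreated libraries. Of 9 fibroblast and matrix markers 7 were listed, and their summed mRNA level was 3906 TMM-scaled CPM in treated and 16823 in untreated muscle, 4.31-fold lower. Their summed footprints were 5892 and 27081 scaled CPM in treated and untreated muscle, 4.60-fold lower. Of these 7 markers, 3 were called lower and 2 higher in mRNA, and 6 were called lower and 0 higher in footprints, where the shares over all genes were 24.8% lower and 31.8% higher in mRNA and 26.2% lower and 19.9% higher in footprints. The collagen genes Col1a1, Col3a1 and Col1a2 had the most reads of this list when mRNA and footprint libraries were summed, and their mRNA was 18.5-fold (16.9 to 20.2), 6.70-fold (6.25 to 7.17) and 6.19-fold (5.59 to 6.84) lower. The mRNA sum followed these 3 collagens, since the median mRNA log2 ratio of the 7 markers was -0.01, against -2.20 in footprints. The 2 markers called higher in mRNA, named after their values were seen, were Dcn at 3.02-fold (2.35 to 3.95) and the microfibril gene Fbn1 at 2.81-fold (1.77 to 4.76). The 4 listed of 7 macrophage markers summed to 208 and 996 scaled CPM in treated and untreated mRNA, 4.80-fold lower, and to 563 and 1228 in treated and untreated footprints, 2.18-fold lower. Each of the 4 was called lower in both readouts, beside the shares over all genes given above. In translation efficiency 3 of these 4 were called higher and 0 lower. A macrophage gene low in untreated mRNA could not be listed. For genes with few reads there, the listing favours lower mRNA and higher translation efficiency calls. Of the 7 fibroblast and matrix markers 0 were called higher and 6 lower in translation efficiency. Over all genes 26.0% were called higher and 31.9% lower. Of the 7 mature fast fibre markers 4 were called higher and 0 lower in mRNA, and 1 higher and 2 lower in footprints. In translation efficiency 1 of these 7 was called higher and 4 lower.

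The 5 listed of 8 regenerating fibre markers summed to 36833 and 45759 scaled CPM in treated and untreated mRNA and to 72277 and 82211 in treated and untreated footprints. Of the 4 compared in mRNA 2 were called lower and 0 higher, with a median log2 ratio of -1.42. Of the 5 compared in footprints 3 were called lower and 0 higher, with a median of -1.12. The shares over all genes were 24.8% lower and 31.8% higher in mRNA, and 26.2% lower and 19.9% higher in footprints. Among the 5 listed markers the myosin gene Myh8 had the most reads. Its ratios were 0.869 (0.844 to 0.894) in mRNA and 0.962 (0.954 to 0.970) in footprints, with no call in either. The embryonic myosin Myh3 had ratios of 1.11 (1.05 to 1.17) in mRNA and 1.06 (1.04 to 1.07) in footprints, also without a call. How reads placed on several myosin genes were handled was not given, so the Myh8 and Myh3 values are uncertain. These genes made up most of the summed levels of this list, which are uncertain too. The same holds for the fast fibre sums, which include the myosins Myh4 and Myh1. The cardiac actin Actc1 was 6.23-fold lower (5.80 to 6.68) in mRNA. The other marker called lower in mRNA, the light chain gene Myl4, named after its values were seen, was 11.7-fold lower (7.36 to 18.3). The 1 listed of 4 adipocyte markers, Fabp4, had 113 and 95.7 scaled CPM in treated and untreated mRNA. Its footprints were 181 and 41.7 scaled CPM in treated and untreated muscle, 4.34-fold higher (3.55 to 5.34), called in 6 of 6 scalings, and its translation efficiency was 3.79-fold higher (2.20 to 6.54). No listed marker was at 0, and none of the 7 satellite cell and 5 endothelial markers was among the genes analysed here. No list of interstitial progenitor markers was used. In whole muscle fewer cells of a type and less RNA per cell cannot be told apart. The part of these marker differences in the values of Peg3, Grb10 and Gnas was not tested.

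The other imprinted genes of the table did not share 1 direction. Of a list of 57, 7 were among the genes analysed here, the 3 members included. Of the other 4, 2 were called higher and 0 lower in mRNA, 0 higher and 1 lower in footprints, and 1 higher and 2 lower in translation efficiency. The shares over all genes were 31.8% higher and 24.8% lower in mRNA, 19.9% and 26.2% in footprints, and 26.0% and 31.9% in translation efficiency. Their median log2 ratios were 0.25 in mRNA and 0.01 in footprints, against 0.06 and -0.02 over all genes compared. Igf2r, the receptor that clears IGF2 and is expressed from the maternal allele, had 1353 and 33 mRNA reads and 519 and 1738 footprint reads in treated and untreated muscle. Its mRNA was 1.90-fold higher (1.35 to 2.77) and its footprints 1.62-fold lower (1.47 to 1.79), the same directions as Gnas by smaller factors. The Igf2r mRNA call held in 3 of 6 scalings and the footprint call in 6.

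Dcn, the matrix proteoglycan decorin, imprinted in mouse placenta, had 4040 and 62 mRNA reads and 5424 and 7707 footprint reads in treated and untreated muscle. Its mRNA was 3.02-fold higher (2.35 to 3.95), and its footprint ratio of 1.46 (1.41 to 1.51) was under the fold threshold. Cd81, a tetraspanin of the cell surface, had an mRNA ratio of 0.701 (0.441 to 1.18) and a footprint ratio of 1.20 (1.06 to 1.35). Slc38a4, an amino acid transporter, had ratios of 0.739 (0.447 to 1.31) and 0.850 (0.696 to 1.03). Their mRNA was called lower in 4 of 6 scalings for Cd81 and in 3 for Slc38a4.

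Grb10 acts on insulin and IGF receptor signalling, and of 40 genes of that pathway 6 were listed. Apart from Grb10, 3 of 5 were called higher and 0 lower in mRNA, and 2 were called higher and 2 lower in footprints, beside 31.8% higher and 24.8% lower in mRNA and 19.9% and 26.2% in footprints over all genes. The 3 higher mRNA calls became 1 with the listed totals or by upper quartile and 0 with the authors' constants. Nedd4, the ubiquitin ligase that binds Grb10, had 3748 and 111 mRNA reads and 930 and 3313 footprint reads in treated and untreated muscle. Its mRNA was 1.57-fold higher (1.30 to 1.91), a call that held in 2 of 6 scalings, with a log2 ratio down to -0.23 in the others, and its footprints were 1.72-fold lower (1.60 to 1.85). Slc2a4, the insulin-responsive glucose transporter GLUT4, was higher in both, at 2.67-fold (1.77 to 4.23) in mRNA and 1.98-fold (1.81 to 2.17) in footprints, the mRNA call in 5 of 6 scalings. Igfbp5, an IGF-binding protein, had 2.52-fold higher footprints (2.33 to 2.72) and an mRNA ratio of 1.22 (0.753 to 2.11).

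Gnas acts on cAMP signalling, and of 38 genes of that pathway 5 were listed. Apart from Gnas, 2 of 4 were called higher and 0 lower in mRNA, and 2 higher and 1 lower in footprints, beside the same shares over all genes of 31.8% and 24.8% in mRNA and 19.9% and 26.2% in footprints. Under the authors' constants 2 of the 4 were called lower in mRNA, and under 3 other scalings (listed totals, upper quartile and totals that omit the top 20 genes) 1 was. Prkaca, a catalytic subunit of protein kinase A, had 528 and 24 mRNA reads and 93 and 1143 footprint reads in treated and untreated muscle. Its mRNA ratio was 1.02 (0.678 to 1.61) and its footprints were 5.94-fold lower (4.80 to 7.42), so its translation efficiency was lower, as was that of Gnas. Prkar1a, a regulatory subunit of the same kinase, had an mRNA ratio of 0.679 (0.459 to 1.04) and a footprint ratio of 1.05 (0.936 to 1.18), and its mRNA was called lower in 4 of 6 scalings. Akap6, which anchors the kinase, was 2.84-fold higher (1.81 to 4.74) in mRNA and 2.03-fold higher (1.75 to 2.35) in footprints, the mRNA call in 5 of 6 scalings. Nr4a1, a nuclear receptor gene that cAMP and muscle activity induce, was 4.79-fold higher (3.06 to 7.97) in mRNA and 10.1-fold higher (8.97 to 11.3) in footprints. None of 15 genes listed as partners of the Peg3 protein or as cell death and NF-kappaB genes was among the genes analysed here.

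The genes most like each member over the 4 libraries were ranked by the Euclidean distance between log2 levels after each gene's own mean was taken off, among 994 other genes. The values share their 4 libraries, so the distance describes these samples only. For Peg3 the nearest were Rpl10a, a ribosomal protein, at 0.840, the elongation factor subunit Eef1b2 at 1.08, the muscle intermediate filament gene Des at 1.15, Chmp4b, an ESCRT component, at 1.23 and Eef1g, another elongation factor subunit, at 1.25. Rpl10a had 829 and 61 mRNA reads and 81 and 670 footprint reads in treated and untreated muscle, close to Peg3 in mRNA and less low in footprints. The median gene lay at a distance of 2.90 from Peg3.

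Grb10 had closer neighbours. They were the transferrin receptor Tfrc at 0.467, the macrophage protease Ctss at 0.482, and the collagen chains Col5a1 at 0.485, Col1a2 at 0.609 and Col6a2 at 0.627, against 2.62 for the median gene. The log2 ratios of Col5a1 were -2.38 in mRNA and -2.08 in footprints, beside -2.13 and -2.63 for Grb10. For Gnas the nearest were the lysosomal membrane gene Lamp1 at 0.606, Rpl11 at 0.653, the phosphatase subunit Ppp1ca at 0.691, Rpl28 at 0.718 and Rpl8 at 0.718, against 1.97 for the median gene. Lamp1 had log2 ratios of 1.75 in mRNA and -1.09 in footprints, beside 1.42 and -1.81 for Gnas. None of the 3 members was among the 5 nearest genes of another. Grb10 and Peg3 lay 2.15 apart, with 237 genes nearer to Grb10 and 124 nearer to Peg3. Gnas and Peg3 lay 2.37 apart, with 745 genes nearer to Gnas and 204 nearer to Peg3. Gnas and Grb10 lay 2.62 apart, with 826 genes nearer to Gnas and 497 nearer to Grb10. Ribosomal protein genes have many near-identical copies, so the values of Rpl10a, Rpl11, Rpl28 and Rpl8 are uncertain.

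Antisense genes overlap Peg3 (Peg3os) and Gnas (Gnasas1) in the RefSeq annotation, and other noncoding genes overlap Grb10 (LOC102631979) and Gnas (Gm30189). The mRNA kit keeps strand, but whether strand was used in counting is not stated, so reads of these overlapping genes could be included.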

How the data were processed

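Libraries of mRNA (stranded total RNA kit) and of ribosome footprints (small RNA kit) were read at 50 nt, per the labels' protocols. The authors deposited whole-number read counts for 1000 genes, per the file headers, and normalized read counts that equal the count times 1 constant per library to within 0.704, or 0.971 percent of the deposited value. These deposited values were read as CPM, a scale inferred from the values. Per the submitters' processing notes, Trimmomatic, STAR, edgeR and mm9 were used, with no roles stated. The tool that counted the reads, its use of strand and its handling of reads with several placements were not given in the sources used here. Of 1000 RefSeq identifiers, 996 matched the RefSeq gene table of GRCm38.p6.

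Raw counts of the whole table were scaled by TMM (edgeR 4.0.16, R 4.3.3). Ratios carry exact conditional binomial 95% intervals, and translation efficiency, with 0.5 added to each count, a 95% normal interval of its logarithm. Since each group had 1 library, no test between conditions and no p-value was possible. Steps were tested on simulated Poisson counts, which hold counting error only and no listing by untreated mRNA. Other variation was therefore not checked. Alternatives were DESeq2 1.42.0 size factors, listed totals, upper quartile, totals without the 20 most abundant genes, the authors' constants, other read minimums, a 2-fold threshold and 5 added reads. The members and the gene lists were chosen with earlier results of these data known. Named genes were the members, up to 4 further genes per list and 3 per marker list by summed reads, and the 5 nearest genes by distance. Some marker genes chosen by this rule are not shown. Fbn1, Myl4 and, as a matrix marker, Dcn were named outside it after their values were seen. Protein sequences were not used here.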

Additional observations from a re-analysis of the deposited data

How the results depend on the processing

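No paired analysis was possible because each group had 1 library. Of 78 values of the members under other scalings or 5 added reads, 61 stayed within their 95% interval and none changed the sign of a called value. The other 17, as log2 ratios, were as follows. With the listed totals, mRNA was -1.46 for Peg3, -2.79 for Grb10 and 0.77 for Gnas, translation efficiency was -1.72 for Peg3 and -2.61 for Gnas, and Gnas footprints per mRNA in treated muscle were -1.28. With the authors' constants, mRNA was -1.68, -3.01 and 0.54 for Peg3, Grb10 and Gnas, translation efficiency -1.72 for Peg3 and -2.61 for Gnas, Gnas footprints -2.08 and Gnas footprints per mRNA in treated muscle -1.29. By upper quartile, mRNA was -1.20 for Peg3 and 1.03 for Gnas, and Gnas footprints were -1.92. Without the 20 most abundant genes, Gnas translation efficiency was -2.87.

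Scaling also moved the background. In mRNA, 317 genes were called higher and 247 lower with TMM, 148 and 464 with the listed totals, 205 and 369 by upper quartile, and 110 and 543 with the authors' constants. At 200 reads 160 were lower in mRNA. Translation efficiency was called higher for 259 genes with TMM and 444 with the listed totals or the authors' constants, and lower for 317, 157 and 158. Higher footprints numbered 199 with TMM and 114 with the authors' constants. At 2-fold, 81 genes were higher and 143 lower in footprints, against 199 and 262. Counts over the gene lists, at most 4 calls each, moved by over 1.5 times in 23 of 192 cases, by 1 to 3 calls; their scaling alternatives were chosen after seeing the data. The mRNA ratio of Grb10 rests on 25 untreated reads. A change of scaling shifts the log2 ratio of every gene by the same amount, so a member keeps its distance from the median gene. The median mRNA log2 ratio over all genes was 0.06 with TMM and -0.82 with the authors' constants. Which scaling fits these muscles best was not tested.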
